A study of Homo sapiens with 15 samples.

Results

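The cholesterol and fatty acid synthesis genes described here are 30 genes picked by name, matched to the gene symbols of the expression table. They comprise 18 enzymes of the sterol branch, 8 enzymes of the fatty acid branch, and 4 genes that regulate both branches or carry sterol. All 30 were found among 20375 genes, and all 30 passed the filter on low counts, which kept 12355 genes. The cells were Molm-13, an established human monocytic acute myeloid leukemia line with an internal tandem duplication of FLT3, the receptor tyrosine kinase gene, and polyadenylated RNA was sequenced in 15 libraries, 3 per group. Control cells grew for 4 days in medium with fetal bovine serum and without drug. Cytarabine, a nucleoside analog that stops DNA synthesis, was present at 0.5 or 1 µM throughout 4 days in a pair of further groups. In the last pair of groups the cells had cytarabine at 0.5 or 1 µM for 3 days, and then FL-Fc-DM1 at 1 nM for 24 hours with no cytarabine. These are called FL-Fc-DM1 after 0.5 µM and FL-Fc-DM1 after 1 µM. What FL-Fc-DM1 stands for is not spelled out in the labels. DM1 usually names mertansine, a tubulin binder, and FL is common shorthand for FLT3 ligand. A comparison of an FL-Fc-DM1 group with its cytarabine group therefore takes in the withdrawal of cytarabine as well as the added agent. No group had FL-Fc-DM1 without cytarabine before it. No library was taken after 3 days of cytarabine, so levels just before FL-Fc-DM1 are unknown. Words such as fell, rose, stayed or further compare groups and do not follow the same cells. A line of the treatment protocol calls the FL-Fc-DM1 cells THP-1, while sample titles, cell line entries and the design text say Molm-13.

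Cells make cholesterol from acetyl-CoA through mevalonate, squalene and lanosterol, and they make fatty acids from the same acetyl-CoA through malonyl-CoA. Both branches are transcribed under sterol regulatory element-binding proteins, membrane-bound transcription factors that are released when sterols in the endoplasmic reticulum run low. SREBF2 is known to act mainly on the sterol branch, and a main product of SREBF1 mainly on the fatty acid branch. INSIG1 holds the precursors in the endoplasmic reticulum, and its own gene is a target of the released factors. SREBF1 is also a known target of the liver X receptors, nuclear receptors that respond to oxysterols. Gene counts cannot separate the SREBF1 isoforms, nor do they show how much factor was released.

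The 250 bases before the start of 5 genes are given below, namely both factor genes, an early sterol enzyme, the desaturase that moved most, and the sterol carrier, which is in neither enzyme branch. They are from RefSeq (GRCh38.p14), 5′ to 3′ on the strand of the gene, at chr22:41832855-41833104, forward strand for SREBF2, chr17:17836987-17837236, reverse strand for SREBF1, chr5:43313413-43313662, reverse strand for the farther upstream of the HMGCS1 starts, chr10:100346983-100347232, forward strand for SCD and chr5:111512536-111512785, reverse strand for STARD4. Capitals mark CCAAT on either strand, the letters bound by the partner factor NF-Y, and TCACNCCAC on either strand, the core of the sterol regulatory element. These motifs do not overlap in the windows shown.
SREBF2: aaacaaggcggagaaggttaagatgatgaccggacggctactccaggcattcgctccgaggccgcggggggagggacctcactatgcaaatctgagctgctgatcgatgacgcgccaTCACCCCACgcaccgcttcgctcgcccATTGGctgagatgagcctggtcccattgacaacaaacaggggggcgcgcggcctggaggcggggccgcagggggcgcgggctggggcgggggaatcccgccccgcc
SREBF1: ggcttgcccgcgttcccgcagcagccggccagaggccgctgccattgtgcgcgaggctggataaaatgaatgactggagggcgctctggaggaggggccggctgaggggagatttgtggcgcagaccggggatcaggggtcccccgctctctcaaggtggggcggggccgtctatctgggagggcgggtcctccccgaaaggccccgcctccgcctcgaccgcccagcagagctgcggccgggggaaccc
HMGCS1: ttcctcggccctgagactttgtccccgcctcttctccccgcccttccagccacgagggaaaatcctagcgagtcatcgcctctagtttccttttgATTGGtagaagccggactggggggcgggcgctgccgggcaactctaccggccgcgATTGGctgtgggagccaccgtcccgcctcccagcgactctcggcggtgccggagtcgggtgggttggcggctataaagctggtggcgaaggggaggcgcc
SCD: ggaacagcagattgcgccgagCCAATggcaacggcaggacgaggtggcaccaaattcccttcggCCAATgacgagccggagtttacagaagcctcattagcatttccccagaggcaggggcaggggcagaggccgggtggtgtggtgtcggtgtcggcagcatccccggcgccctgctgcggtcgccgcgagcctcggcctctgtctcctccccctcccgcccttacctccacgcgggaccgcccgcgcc
STARD4: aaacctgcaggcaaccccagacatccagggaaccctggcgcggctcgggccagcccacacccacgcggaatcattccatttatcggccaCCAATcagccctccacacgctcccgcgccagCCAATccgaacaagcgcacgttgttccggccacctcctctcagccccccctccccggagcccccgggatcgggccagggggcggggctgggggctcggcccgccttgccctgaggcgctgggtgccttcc

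RefSeq windows from 250 bases before to 50 after a start were matched for 26 of the 30 members, and FASN, ACAT2, SQLE and FDFT1 had no entry. CCAAT stood in a window of 21 of the 26, namely 13 of 15 sterol enzymes, 5 of 7 fatty acid enzymes and 3 of 4 regulators. Over all 27305 genes with windows, 39.7% had it, and 34.6% of the 35116 windows. The sterol element core was found in 1 of 26 members, SREBF2, where it began 133 bases before the start with a CCAAT match at 106 bases, against 1.39% of all genes and 1.13% of all windows. The E-box CACGTG, also searched on both strands, was in LSS, SC5D, ELOVL5 and INSIG1, against 8.77% of all genes and 7.26% of all windows. The SREBF1 window had none of these motifs, and neither had the window of the HMGCS1 start that is not shown. A match is a string of letters and not a binding site, and absence of a string from a window says nothing about a factor.

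Library totals ran from 10858017 to 16965626 counts. Mitochondrially encoded genes took 4.50% to 4.75% of counts in control, 6.47% to 6.79% after cytarabine and 6.23% to 6.46% after FL-Fc-DM1. Of 8 myeloid markers 7 were testable, and 6 were higher and MPO lower at both cytarabine doses than in control. Of all genes tested, 38.0% were higher and 35.2% lower at 0.5 µM, and 39.3% and 36.6% at 1 µM. The summed level of the myeloid markers was 1422 to 1448 CPM in control, 9962 to 10441 and 8052 to 8284 CPM at 0.5 and 1 µM cytarabine, and 16503 to 17238 and 14696 to 15184 CPM in the FL-Fc-DM1 groups. LYZ, the lysozyme gene, made up most of the sums of the treated groups, with a mean of 15421 CPM in FL-Fc-DM1 after 0.5 µM. Of the 7 testable markers, 3 were higher and 3 lower in FL-Fc-DM1 than in cytarabine after 0.5 µM, and 2 higher and 3 lower after 1 µM, the lower ones being CD4, PTPRC and FLT3 each time. Of all genes tested, 22.0% were higher and 22.8% lower after 0.5 µM, and 23.5% and 22.2% after 1 µM. CPM are counts scaled to the library total and edgeR's TMM factor. The 6 T and NK cell markers summed to 29.9 to 33.4 CPM in control and 52.4 to 69.5 CPM elsewhere. Of these, 3 were testable, and in every treated group NKG7 and GNLY were higher and CD3D lower than in control. The B cell, erythroid, megakaryocyte and stromal or epithelial lists stayed at or below 3.27 CPM, and KLF1, PF4, PPBP, COL1A2 and EPCAM had no count in any library. The myeloid genes and the mitochondrial share also differed between the groups, and their part in the results was not tested. Nothing says that libraries of a group were separate cultures, so p-values reflect the spread among these libraries alone, and that spread may be technical. In bulk RNA, fewer cells of a kind and less RNA per cell cannot be told apart.

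All 8 fatty acid enzymes fell with cytarabine, and 7 of them, all but ELOVL5, stayed below control after FL-Fc-DM1. Sterol enzymes moved in both directions with cytarabine, and 13 of 18 were higher after FL-Fc-DM1 than with cytarabine at each dose. At 0.5 µM cytarabine 7 of the 30 members were higher and 17 lower than in control. Across all 12355 genes tested, 38.0% were higher and 35.2% lower in that comparison. At 1 µM 5 members were higher and 19 lower, against 39.3% and 36.6% of all genes. Each call is a Benjamini-Hochberg adjusted p under 0.05 over all genes in edgeR's quasi-likelihood test. By branch, 0 of 8 fatty acid enzymes were higher and 8 lower at each dose, while 5 of 18 sterol enzymes were higher and 7 lower at 0.5 µM, and 3 higher and 9 lower at 1 µM. The median log2 change was -1.17 and -1.31 for fatty acid enzymes, -0.15 and -0.20 for sterol enzymes, and 0.03 at each dose for all genes tested.

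Against cytarabine of the same dose, FL-Fc-DM1 went with 20 members higher and 2 lower after 0.5 µM, where 22.0% of all genes were higher and 22.8% lower. After 1 µM, 22 members were higher and 3 lower, against 23.5% and 22.2% of all genes. Of the 18 sterol enzymes 13 were higher after each dose, with 0 lower after 0.5 µM and 1, TM7SF2, lower after 1 µM. Of the 8 fatty acid enzymes 5 and 7 were higher and 0 lower. The median log2 change was 0.51 and 0.49 for sterol enzymes, 0.24 and 0.32 for fatty acid enzymes, and -0.02 and -0.00363 for all genes. The cytarabine libraries enter this comparison as well as the one with control, so the values of a gene are not independent.

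Summed over the 8 fatty acid enzymes, the level was 1860.2 ± 19.3 CPM in control (SD, n = 3), 836 ± 13.7 at 0.5 µM cytarabine, 769 ± 4.25 at 1 µM, 1045 ± 14.1 in FL-Fc-DM1 after 0.5 µM and 964 ± 11.8 in FL-Fc-DM1 after 1 µM. For the 18 sterol enzymes the sums were 858 ± 4.94, 751 ± 4.42, 699.5 ± 15.5, 1026 ± 8.93 and 976 ± 9.78 CPM in the same order. The fatty acid sum thus stayed below every control library in all other libraries, while the sterol sum of every FL-Fc-DM1 library lay above every control library. Fatty acid per sterol counts went from 2.17 ± 0.0349 in control to 1.11 ± 0.0183 and 1.10 ± 0.0300 with cytarabine, and to 1.02 ± 0.00727 and 0.989 ± 0.0122 after FL-Fc-DM1. SCD alone made up 41.2 ± 0.305% of the fatty acid sum in control and 20.1 ± 0.626%, 17.5 ± 0.647%, 17.5 ± 0.341% and 17.3 ± 0.250% in the other groups. Longer and more abundant transcripts weigh more in these sums.

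**Figure D1:**
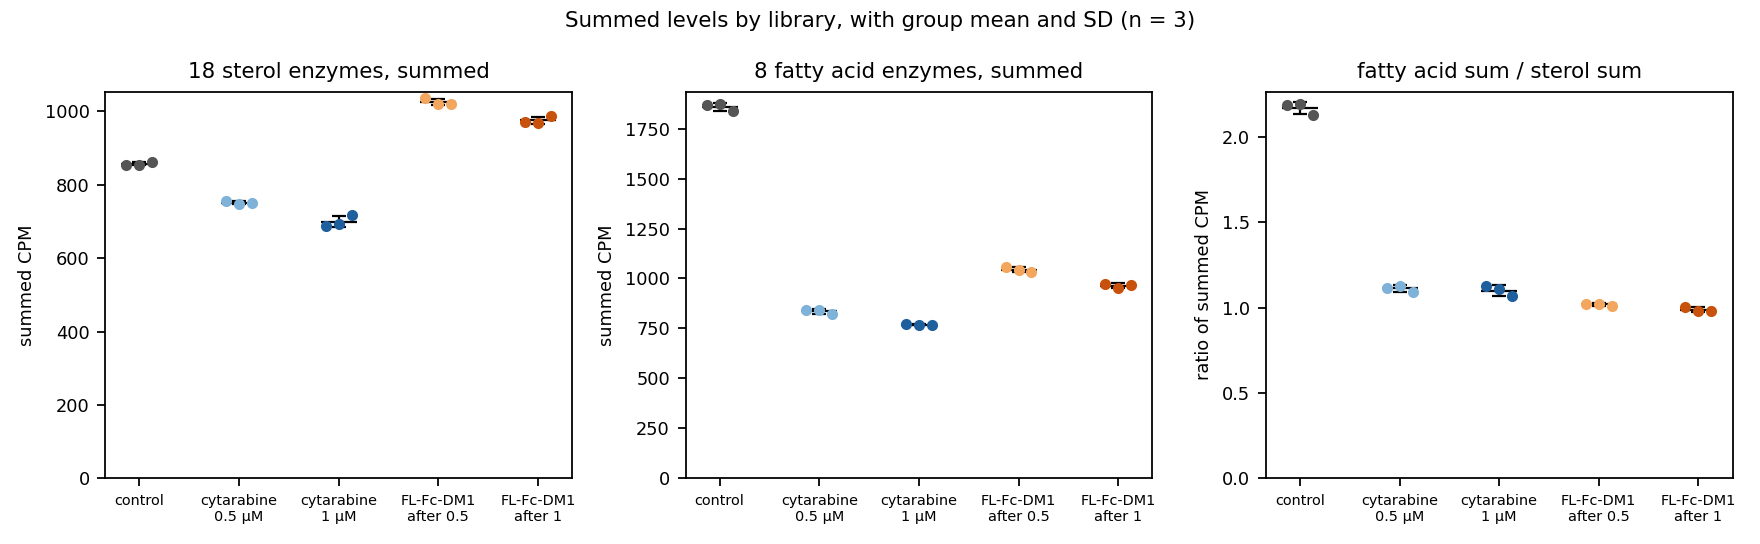
Summed CPM of the 18 sterol enzymes, of the 8 fatty acid enzymes, and the ratio of the sums, on linear axes from 0; points are libraries, horizontal bars the mean and error bars the SD of 3 libraries, and 0.5 and 1 are the cytarabine dose in µM. The fatty acid sum drops from 1860 CPM in control to 836 CPM at 0.5 µM cytarabine and reaches 1045 CPM after FL-Fc-DM1, whereas the sterol sum ends above control, and the ratio goes from 2.17 to 0.989 in FL-Fc-DM1 after 1 µM.

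Among the regulators, SREBF1 and SREBF2 both fell with cytarabine and parted after FL-Fc-DM1. SREBF1 (ENSG00000072310) had 99.7, 102 and 104 CPM in the control libraries, 40.9, 42.1 and 41.3 at 0.5 µM cytarabine and 32.0, 35.3 and 35.0 at 1 µM. It had 28.0, 29.5 and 26.5 CPM in FL-Fc-DM1 after 0.5 µM and 23.6, 22.0 and 25.4 after 1 µM. The control libraries were highest and the FL-Fc-DM1 libraries lowest, with cytarabine between them and no overlap. With cytarabine the log2 change against control was -1.30 ± 0.057 (SE; adjusted p = 6.65e-17) and -1.58 ± 0.058, a 2.46- and 2.99-fold fall. FL-Fc-DM1 against cytarabine gave -0.57 ± 0.066 (adjusted p = 1.25e-07) and -0.53 ± 0.071, and SREBF1 was 3.65- and 4.31-fold below control in the FL-Fc-DM1 groups. SREBF1 overlaps RAI1 in RefSeq, and use of strand in counting was not given in the sources used here.

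SREBF2 (ENSG00000198911) stood at 232, 225 and 239.9 CPM in control, 142, 142 and 146 at 0.5 µM cytarabine and 129.8, 125 and 128 at 1 µM. After FL-Fc-DM1 it stood at 164, 167 and 164 CPM following 0.5 µM and 157, 161 and 154 following 1 µM. Every FL-Fc-DM1 library lay between the control and the cytarabine libraries. The fall with cytarabine was -0.70 ± 0.036 and -0.86 ± 0.036 on the log2 scale, and FL-Fc-DM1 was 0.20 ± 0.037 (adjusted p = 7.65e-05) and 0.30 ± 0.038 above cytarabine, leaving SREBF2 1.41- and 1.47-fold below control. Per length, SREBF1 had 0.576 ± 0.00617 of the TPM (length-scaled transcript share) of SREBF2 in control, 0.391 ± 0.0297 and 0.363 ± 0.0501 with cytarabine, and 0.220 ± 0.0142 and 0.209 ± 0.0164 after FL-Fc-DM1. This ratio was highest in control and lowest in the FL-Fc-DM1 groups.

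INSIG1 (ENSG00000186480) was higher with cytarabine and higher still after FL-Fc-DM1, going from 171, 168 and 159 CPM in control to 194, 190.3 and 196 at 0.5 µM cytarabine and 211, 212 and 223 at 1 µM. It reached 232, 230.2 and 248 CPM in FL-Fc-DM1 after 0.5 µM and 302, 284 and 266 after 1 µM, and the 5 groups did not overlap. The log2 changes were 0.22 ± 0.044 (adjusted p = 8.17e-05) and 0.37 ± 0.043 for cytarabine, 0.29 ± 0.043 and 0.40 ± 0.043 for FL-Fc-DM1 against cytarabine, and 0.51 ± 0.043 and 0.77 ± 0.043 for FL-Fc-DM1 against control. STARD4 (ENSG00000164211), a soluble sterol carrier, had 87.9, 77.4 and 79.4 CPM in control, 167, 166 and 166 at 0.5 µM cytarabine and 190.3, 216 and 205 at 1 µM. Its FL-Fc-DM1 libraries had 112, 104 and 112 CPM after 0.5 µM and 133, 126 and 129 after 1 µM. It was highest in the cytarabine groups, and its FL-Fc-DM1 libraries lay between those and control without overlap. The rise with cytarabine was 2.04- and 2.49-fold (log2 1.03 ± 0.050 and 1.32 ± 0.050), and the fall after FL-Fc-DM1 was -0.60 ± 0.050 (adjusted p = 3.40e-10) and -0.65 ± 0.049. Of the regulators, 2 were higher and 2 lower in each of the 6 comparisons of treated groups with control or with cytarabine. Of all genes tested, 35.0% to 39.3% were higher and 34.2% to 36.6% lower in the comparisons with control. In those of FL-Fc-DM1 with cytarabine, 22.0% to 23.5% were higher and 22.2% to 22.8% lower.

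**Figure D2:**
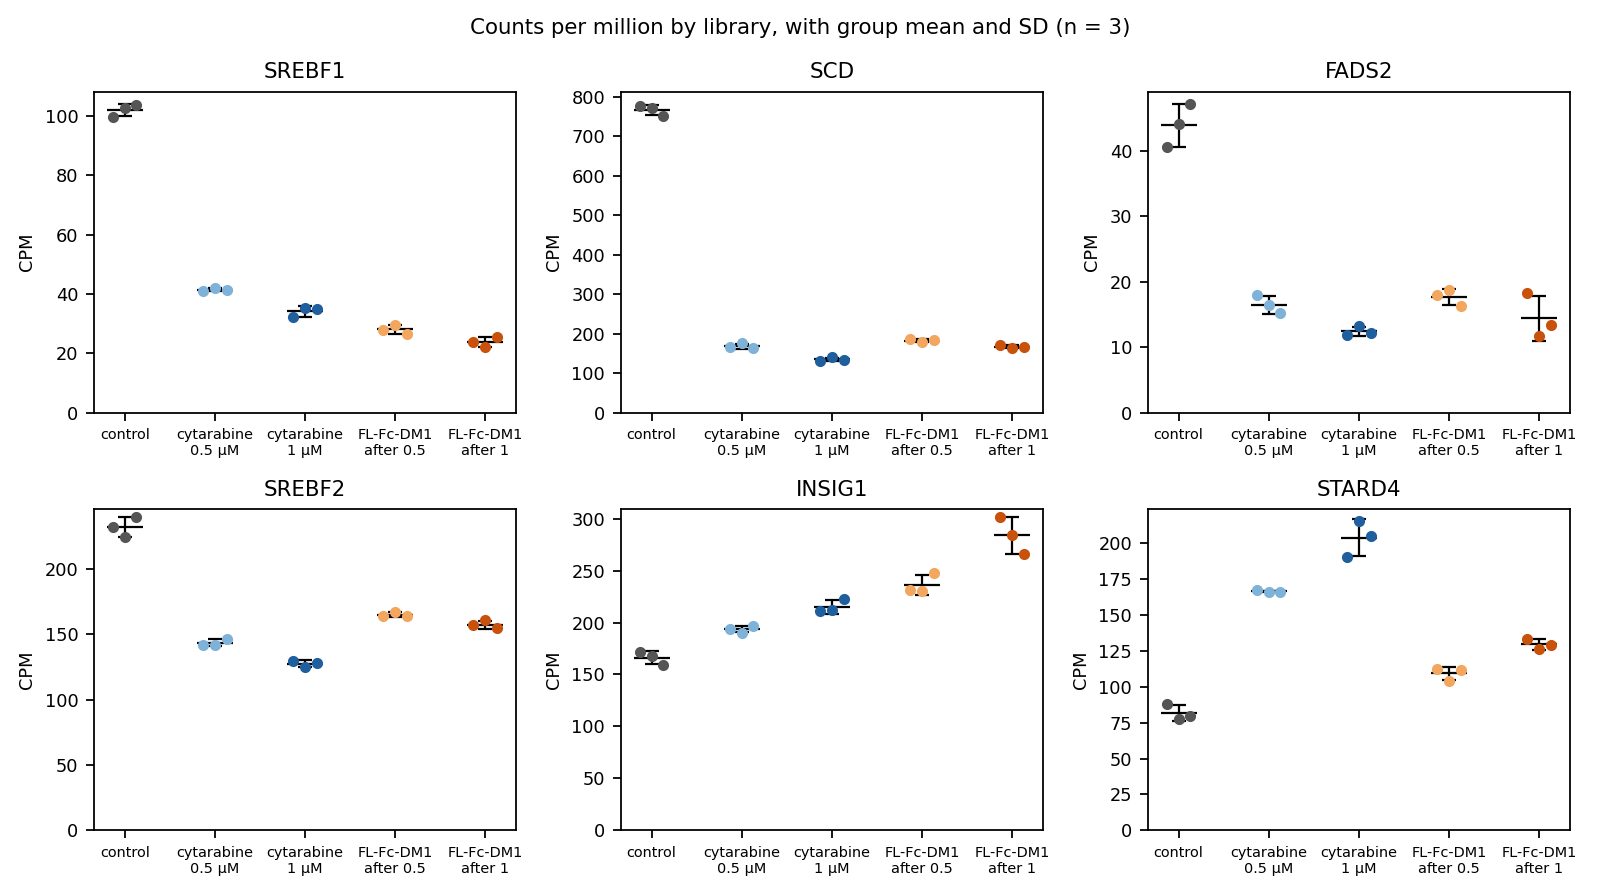
CPM by library (points) with mean and SD of 3 libraries for SREBF1, SCD, FADS2, SREBF2, INSIG1 and STARD4, on linear axes from 0 that differ between panels. SREBF1 and SCD are highest in control and low in all treated groups, and SREBF2 lies between control and cytarabine after FL-Fc-DM1. INSIG1 is highest in FL-Fc-DM1 after 1 µM, and STARD4 peaks in the cytarabine groups.

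In the fatty acid branch, SCD, the desaturase that makes oleate from stearate, fell most. SCD (ENSG00000099194) had 776, 772 and 752 CPM in control, 165, 175 and 164 at 0.5 µM cytarabine, 130.3, 139.5 and 133 at 1 µM, 186, 178 and 183 in FL-Fc-DM1 after 0.5 µM and 171, 163 and 166 after 1 µM. All treated libraries lay far below the control libraries. The fall was 4.56-fold (log2 -2.19 ± 0.036, adjusted p = 4.17e-26) and 5.71-fold (log2 -2.51 ± 0.037) with cytarabine. FL-Fc-DM1 was 0.12 ± 0.038 (adjusted p = 0.0121) and 0.31 ± 0.039 above cytarabine, and SCD remained 4.20- and 4.60-fold below control. On the log2(TPM + 1) scale the first of these FL-Fc-DM1 rises was 0.09 and was not called (adjusted p = 0.147, limma).

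ACACA (ENSG00000278540), which makes malonyl-CoA, the committed step of the branch, fell with cytarabine and stayed near that level. Its levels were 251, 253 and 243 CPM in control, 105, 106 and 98.8 at 0.5 µM cytarabine and 98.2, 89.3 and 96.9 at 1 µM. In FL-Fc-DM1 it had 99.9, 101 and 104 CPM after 0.5 µM and 104, 101 and 103 after 1 µM. The change against control was -1.27 ± 0.041 and -1.39 ± 0.041 with cytarabine, and -1.29 ± 0.041 and -1.28 ± 0.042 after FL-Fc-DM1. Against cytarabine FL-Fc-DM1 gave -0.02 ± 0.044 after 0.5 µM (95% interval -0.12 to 0.08, adjusted p = 0.712) and 0.11 ± 0.045 after 1 µM (adjusted p = 0.0444). That second call was lost without cytarabine 1 µM replicate 2 (0.08), or FL-Fc-DM1 after 1 µM replicate 1 (0.10), and in a fit of only the groups compared (adjusted p = 0.161). ACACA overlaps C17orf78 in RefSeq. FASN (ENSG00000169710), the fatty acid synthase, fell from 191, 188 and 194 CPM to 89.5, 83.5 and 83.1 CPM at 0.5 µM cytarabine and 76.1, 71.4 and 76.3 at 1 µM. It rose to 135, 144 and 124 CPM in FL-Fc-DM1 after 0.5 µM and 106, 105 and 121 after 1 µM. Its FL-Fc-DM1 libraries lay between the cytarabine and the control libraries, with log2 changes of 0.65 ± 0.056 and 0.56 ± 0.058 against cytarabine and -0.51 ± 0.052 and -0.79 ± 0.054 against control.

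ACLY (ENSG00000131473), which supplies cytosolic acetyl-CoA to both branches, lay nearer to control after FL-Fc-DM1 than with cytarabine. It had 214, 213 and 216 CPM in control, 157, 157 and 155 at 0.5 µM cytarabine and 146, 152 and 146 at 1 µM. After FL-Fc-DM1 it stood at 202, 204 and 196 CPM following 0.5 µM and 189, 187 and 186 following 1 µM. The log2 change was -0.46 ± 0.034 and -0.54 ± 0.034 with cytarabine, 0.36 ± 0.034 and 0.34 ± 0.035 for FL-Fc-DM1 against cytarabine, and -0.09 ± 0.033 (adjusted p = 0.0137) and -0.19 ± 0.034 against control. ELOVL5 (ENSG00000012660), an elongase of polyunsaturated fatty acids, was the single member of the branch to end above control. It had 265, 269 and 262 CPM in control, 238, 239.8 and 238 at 0.5 µM cytarabine and 247, 239.9 and 241 at 1 µM. Its FL-Fc-DM1 libraries had 339, 314 and 331 CPM after 0.5 µM and 307, 306 and 305 after 1 µM, a log2 change of 0.31 ± 0.033 (adjusted p = 4.97e-09) and 0.21 ± 0.033 against control. Its fall with cytarabine was small, at -0.15 ± 0.033 and -0.13 ± 0.033. ELOVL6, which lengthens palmitate, fell from 58.1 ± 1.54 CPM to 35.7 ± 1.32 and 32.8 ± 0.219 CPM and reached 46.0 ± 3.23 and 42.3 ± 2.85 CPM after FL-Fc-DM1 (SD, n = 3), a log2 change of 0.36 ± 0.066 and 0.37 ± 0.068 against cytarabine. On the log2(TPM + 1) scale these rises were 0.11 and 0.39 and neither was called (adjusted p = 0.624 and 0.0622, limma).

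The desaturases of polyunsaturated fatty acids, FADS1 and FADS2, fell and stayed low. FADS2 (ENSG00000134824) had 40.5, 44.0 and 47.1 CPM in control, 17.9, 16.4 and 15.2 at 0.5 µM cytarabine and 11.9, 13.2 and 12.2 at 1 µM. In FL-Fc-DM1 it had 17.9, 18.8 and 16.3 CPM after 0.5 µM and 18.2, 11.7 and 13.3 after 1 µM. Its log2 change was -1.41 ± 0.11 and -1.82 ± 0.11 with cytarabine and -1.32 ± 0.11 and -1.61 ± 0.11 in FL-Fc-DM1 against control. The change from cytarabine to FL-Fc-DM1 was not called (95% intervals -0.17 to 0.36 and -0.07 to 0.50). FADS1 (ENSG00000149485) fell from 72.5 ± 3.27 to 32.2 ± 2.00 and 30.1 ± 2.88 CPM with cytarabine and had 33.9 ± 1.13 and 34.4 ± 1.90 CPM after FL-Fc-DM1. FADS1 was 0.19 ± 0.077 higher in FL-Fc-DM1 than in cytarabine at 1 µM (adjusted p = 0.0431), a call lost without cytarabine 1 µM replicate 3 (0.12), or FL-Fc-DM1 after 1 µM replicate 1 (0.16) or 3 (0.20), and in a fit of only the groups compared (adjusted p = 0.138). FADS1 and FADS2 overlap each other in RefSeq.

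**Figure D3:**
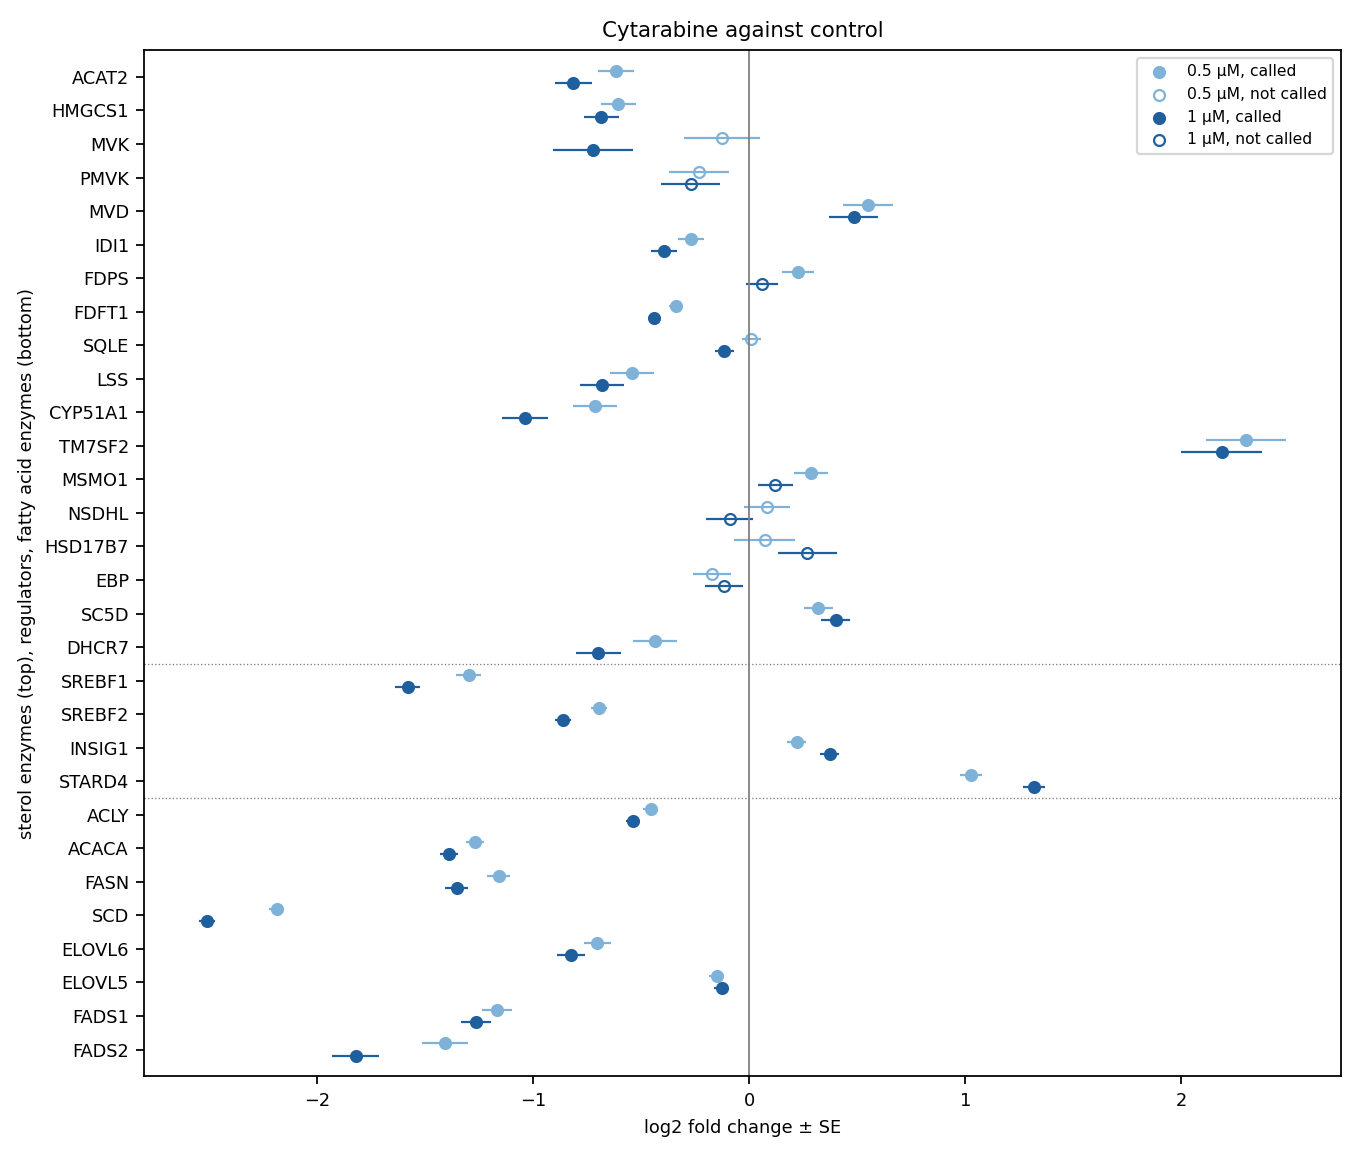
Log2 fold change ± SE of the 30 members for cytarabine at 0.5 µM (light) and 1 µM (dark) against control, with the sterol enzymes at the top, then the regulators, then the fatty acid enzymes; filled points were called at an adjusted p under 0.05. All 8 fatty acid enzymes lie left of 0, from -2.51 for SCD to -0.13 for ELOVL5 at 1 µM, and the sterol enzymes lie on both sides, with TM7SF2 farthest right at 2.30.

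In the sterol branch 7 of 18 enzymes fell and 3 rose at both cytarabine doses. Of all genes tested, 35.2% were lower and 38.0% higher at 0.5 µM, and 36.6% and 39.3% at 1 µM. The share of all genes called alike at both doses was not counted. The enzymes that fell were ACAT2, HMGCS1, IDI1, FDFT1, LSS, CYP51A1 and DHCR7, and those that rose were MVD, TM7SF2 and SC5D. Of the 7 enzymes of the mevalonate stage, 5 were higher in FL-Fc-DM1 than in cytarabine after each dose. Of all genes tested, 22.0% were higher after 0.5 µM and 23.5% after 1 µM. HMGCS1 (ENSG00000112972), which makes HMG-CoA, had 50.0, 48.4 and 47.2 CPM in control, 35.5, 30.2 and 29.9 at 0.5 µM cytarabine and 25.5, 30.8 and 34.7 at 1 µM. After FL-Fc-DM1 it stood at 54.6, 50.1 and 54.4 CPM following 0.5 µM and 53.9, 56.2 and 57.0 following 1 µM. The cytarabine libraries were all lower than the control libraries, and the FL-Fc-DM1 libraries all above 50.0 CPM, the highest control value. The log2 change was -0.61 ± 0.082 and -0.69 ± 0.082 with cytarabine, 0.74 ± 0.083 (adjusted p = 7.06e-08) and 0.88 ± 0.084 for FL-Fc-DM1 against cytarabine, and 0.13 ± 0.077 (adjusted p = 0.143) and 0.20 ± 0.078 (adjusted p = 0.0270) against control. The last of these calls was lost without control replicate 2 (0.19) or 3 (0.17), or FL-Fc-DM1 after 1 µM replicate 2 (0.18) or 3 (0.17), and on the log2(TPM + 1) scale (adjusted p = 0.137, limma).

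ACAT2 (ENSG00000120437), the thiolase that opens the pathway, had 42.8 ± 1.53 CPM in control, 27.9 ± 1.78 and 24.2 ± 3.77 with cytarabine, and 39.6 ± 1.91 and 42.1 ± 2.85 after FL-Fc-DM1. Its log2 change was -0.62 ± 0.084 and -0.81 ± 0.085 with cytarabine, and FL-Fc-DM1 was 0.51 ± 0.086 and 0.79 ± 0.088 above cytarabine. Its log2 change against control after FL-Fc-DM1 was -0.11 ± 0.081 (95% interval -0.29 to 0.07) and -0.02 ± 0.081 (-0.20 to 0.16) and was not called. ACAT2 overlaps TCP1 and SOD2 in RefSeq. IDI1 (ENSG00000067064), the isopentenyl diphosphate isomerase, had 51.9, 52.9 and 53.4 CPM in control, 43.4, 44.4 and 43.5 at 0.5 µM cytarabine and 38.6, 43.1 and 38.9 at 1 µM. Its FL-Fc-DM1 libraries had 72.3, 67.7 and 70.5 CPM after 0.5 µM and 82.6, 73.4 and 74.2 after 1 µM. IDI1 overlaps WDR37 in RefSeq. All its FL-Fc-DM1 libraries lay above control, with log2 changes of 0.68 ± 0.059 and 0.94 ± 0.059 against cytarabine and 0.41 ± 0.056 (adjusted p = 4.12e-07) and 0.54 ± 0.057 against control. MVD, the decarboxylase that makes isopentenyl diphosphate, rose with cytarabine by 0.55 ± 0.12 and 0.48 ± 0.12, from 8.73 ± 0.907 to 12.8 ± 0.598 and 12.3 ± 1.27 CPM, and stood at 14.5 ± 0.988 and 13.4 ± 0.351 CPM after FL-Fc-DM1, 0.73 ± 0.11 and 0.62 ± 0.12 above control.

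FDPS, the farnesyl diphosphate synthase, had 39.1 ± 1.07 CPM in control, 45.7 ± 2.32 and 40.7 ± 5.42 with cytarabine, and 51.3 ± 0.863 and 49.8 ± 3.05 after FL-Fc-DM1. It was above control by 0.39 ± 0.073 and 0.35 ± 0.074 after FL-Fc-DM1, and its rise at 0.5 µM cytarabine (0.23 ± 0.073) was not called without cytarabine 0.5 µM replicate 1 (0.18) or 2 (0.18). RefSeq lists 10 pseudogenes of FDPS by symbol, and reads that fit copies may be split among them. The kinases of mevalonate were low in counts, and MVK overlaps MMAB in RefSeq. MVK had 5.22 ± 0.449 CPM in control, 4.77 ± 0.306 and 3.17 ± 0.710 with cytarabine, and 7.21 ± 0.680 and 6.33 ± 0.741 after FL-Fc-DM1, a log2 change of 0.59 ± 0.17 and 1.00 ± 0.19 against cytarabine. On the log2(TPM + 1) scale the first of these was 0.35 and not called (adjusted p = 0.0847, limma). At 1 µM cytarabine it was -0.72 ± 0.18 against control (adjusted p = 0.00106). In FL-Fc-DM1 after 0.5 µM MVK was 0.47 ± 0.17 above control, which was not called without control replicate 3 (0.40), or FL-Fc-DM1 after 0.5 µM replicate 2 (0.38). PMVK had 12.1 ± 0.976 CPM in control, 10.3 ± 0.155 and 10.0 ± 0.613 with cytarabine, and 14.2 ± 0.923 and 11.2 ± 3.16 after FL-Fc-DM1, and was called in 1 comparison, FL-Fc-DM1 against cytarabine at 0.5 µM (0.46 ± 0.14, adjusted p = 0.00845).

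All 3 enzymes from squalene to lanosterol were higher in FL-Fc-DM1 than in cytarabine after both doses, where 22.0% and 23.5% of all genes were higher. FDFT1 (ENSG00000079459), the squalene synthase, had 361, 362 and 374 CPM in control, 289, 289 and 288 at 0.5 µM cytarabine and 271, 267 and 270.4 at 1 µM. In FL-Fc-DM1 it had 378, 384 and 373 CPM after 0.5 µM and 341, 335 and 347 after 1 µM. It was lower than control by 0.34 and 0.44 on the log2 scale with cytarabine. FL-Fc-DM1 was 0.39 ± 0.031 and 0.34 ± 0.031 above cytarabine. Against control it was 0.05 ± 0.030 (adjusted p = 0.147) in FL-Fc-DM1 after 0.5 µM and -0.10 ± 0.030 (adjusted p = 0.00489) after 1 µM, and the second call was lost in a fit of only the groups compared (adjusted p = 0.0540). SQLE (ENSG00000104549), the squalene epoxidase, had 100.1, 101 and 94.4 CPM in control, 97.3, 96.2 and 104 at 0.5 µM cytarabine and 88.1, 93.8 and 91.0 at 1 µM. After FL-Fc-DM1 it stood at 156, 161 and 156 CPM following 0.5 µM and 140.0, 136 and 131 following 1 µM. Its control and cytarabine libraries lay close together, and its FL-Fc-DM1 libraries stood above all of them. FL-Fc-DM1 was 0.67 ± 0.044 and 0.58 ± 0.045 above cytarabine, and 0.68 ± 0.043 (adjusted p = 2.18e-13) and 0.46 ± 0.044 above control. The small fall at 1 µM cytarabine (-0.12 ± 0.045, adjusted p = 0.0231) was not called without control replicate 1 (-0.11) or 2 (-0.10), or cytarabine 1 µM replicate 1 (-0.09). LSS, the lanosterol synthase, fell from 24.0 ± 1.89 to 16.5 ± 0.201 and 15.0 ± 0.448 CPM with cytarabine and had 24.2 ± 1.60 and 23.8 ± 3.98 CPM after FL-Fc-DM1. It was 0.55 ± 0.10 and 0.67 ± 0.11 above cytarabine, but on the log2(TPM + 1) scale the second of these was 0.39 and not called (adjusted p = 0.0699, limma). Against control its 95% intervals were -0.21 to 0.22 and -0.23 to 0.21 on the log2 scale.

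From lanosterol to cholesterol the enzymes moved less alike. CYP51A1 (ENSG00000001630), the lanosterol demethylase, had 26.1, 23.8 and 24.5 CPM in control, 14.7, 16.2 and 14.6 at 0.5 µM cytarabine and 13.5, 12.9 and 9.71 at 1 µM. Its FL-Fc-DM1 libraries had 27.0, 23.3 and 24.9 CPM after 0.5 µM and 24.6, 29.3 and 28.2 after 1 µM. The cytarabine libraries lay below all others, and the FL-Fc-DM1 libraries overlapped with control. The log2 change was -0.71 ± 0.10 and -1.04 ± 0.11 with cytarabine, 0.73 ± 0.10 (adjusted p = 2.97e-06) and 1.18 ± 0.11 for FL-Fc-DM1 against cytarabine, and 0.01 ± 0.097 (95% interval -0.20 to 0.23) and 0.14 ± 0.097 (-0.08 to 0.36) against control. DHCR7 (ENSG00000172893), a sterol reductase near the end of the branch, had 22.0, 21.5 and 23.9 CPM in control, 18.2, 14.0 and 17.6 at 0.5 µM cytarabine and 16.3, 12.6 and 12.3 at 1 µM. In FL-Fc-DM1 it had 26.7, 26.9 and 26.2 CPM after 0.5 µM and 26.7, 25.9 and 27.7 after 1 µM. FL-Fc-DM1 was 0.68 ± 0.10 and 0.95 ± 0.11 above cytarabine. The smaller difference from control, 0.24 ± 0.098 and 0.25 ± 0.099, was not called after 0.5 µM without control replicate 1 (0.22) or 2 (0.21), or FL-Fc-DM1 after 0.5 µM replicate 1 (0.23), 2 (0.22) or 3 (0.24), nor after 1 µM without control replicate 1 (0.23) or 2 (0.22), or FL-Fc-DM1 after 1 µM replicate 3 (0.21). On the log2(TPM + 1) scale it was 0.22 after 0.5 µM (adjusted p = 0.205) and 0.02 after 1 µM (adjusted p = 0.907, limma).

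TM7SF2 and MSMO1 differed from CYP51A1 and DHCR7 in direction under cytarabine at 0.5 µM. TM7SF2 (ENSG00000149809), a sterol reductase that follows the demethylation, had 2.65, 3.22 and 2.70 CPM in control, 14.7, 13.5 and 13.9 at 0.5 µM cytarabine and 12.8, 12.1 and 14.0 at 1 µM. After FL-Fc-DM1 it stood at 11.3, 9.65 and 11.6 CPM following 0.5 µM and 12.8, 6.22 and 8.64 following 1 µM. It rose 4.93-fold (log2 2.30 ± 0.19, adjusted p = 2.28e-11) and 4.55-fold (2.19 ± 0.19) with cytarabine. All treated libraries were above the control libraries, and those of FL-Fc-DM1 after 1 µM were the most scattered of all members, with a coefficient of variation of 36.2%. Against control FL-Fc-DM1 was 1.93 ± 0.19 and 1.69 ± 0.20. Its change in FL-Fc-DM1 against cytarabine was -0.37 ± 0.16 after 0.5 µM (adjusted p = 0.0574) and -0.50 ± 0.17 after 1 µM (adjusted p = 0.0161). The latter was not called without cytarabine 1 µM replicate 3 (-0.44), or FL-Fc-DM1 after 1 µM replicate 2 (-0.26) or 3 (-0.44), or in a fit of only the groups compared (adjusted p = 0.0506). MSMO1 (ENSG00000052802), a methylsterol oxidase, had 24.8, 24.4 and 22.9 CPM in control, 31.6, 26.9 and 29.2 at 0.5 µM cytarabine and 23.7, 28.4 and 26.5 at 1 µM. Its FL-Fc-DM1 libraries had 44.2, 40.8 and 42.8 CPM after 0.5 µM and 45.0, 49.2 and 44.2 after 1 µM. FL-Fc-DM1 libraries lay above all others, at 0.54 ± 0.077 and 0.82 ± 0.078 against cytarabine and 0.83 ± 0.077 (adjusted p = 4.39e-10) and 0.94 ± 0.078 against control. Its rise at 0.5 µM cytarabine (0.29 ± 0.080) was not called without cytarabine 0.5 µM replicate 1 (0.20), and at 1 µM the change was 0.12 ± 0.081 (adjusted p = 0.183).

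The other enzymes of this stage were NSDHL, SC5D, EBP and HSD17B7. NSDHL, a sterol dehydrogenase, had 14.2 ± 0.934 CPM in control, 15.0 ± 1.79 and 13.3 ± 1.58 with cytarabine, and 21.5 ± 1.14 and 17.7 ± 0.908 after FL-Fc-DM1. It was 0.52 ± 0.10 and 0.41 ± 0.11 higher in FL-Fc-DM1 than in cytarabine, and 0.60 ± 0.10 and 0.32 ± 0.11 above control. Its call against control after 1 µM was lost without control replicate 3 (0.26). SC5D, a sterol desaturase, rose with cytarabine by 0.32 ± 0.068 and 0.40 ± 0.067, from 39.9 ± 0.920 to 49.8 ± 3.58 and 52.8 ± 3.33 CPM, and FL-Fc-DM1 after 0.5 µM was a further 0.20 ± 0.066 higher, a call lost without cytarabine 0.5 µM replicate 1 (0.17), or FL-Fc-DM1 after 0.5 µM replicate 1 (0.16). After 1 µM SC5D was 0.06 ± 0.067 against cytarabine and was not called (95% interval -0.09 to 0.21). Its FL-Fc-DM1 levels were 57.3 ± 4.12 and 54.9 ± 2.57 CPM, 0.52 ± 0.067 and 0.46 ± 0.068 above control. EBP, a sterol isomerase, had 23.4 ± 0.730 CPM in control, 20.8 ± 1.35 and 21.6 ± 1.83 with cytarabine and 21.8 ± 1.59 and 26.6 ± 2.25 after FL-Fc-DM1, and was higher than cytarabine after 1 µM (0.30 ± 0.089, adjusted p = 0.00740). HSD17B7, a sterol ketone reductase, had 8.84 ± 1.02, 9.32 ± 1.05, 10.7 ± 1.93, 9.87 ± 1.00 and 11.6 ± 0.646 CPM in the 5 groups in the same order. It was called once, in FL-Fc-DM1 after 1 µM against control (0.38 ± 0.14, adjusted p = 0.0174), and not without control replicate 2 (0.29), or FL-Fc-DM1 after 1 µM replicate 3 (0.34), nor on the log2(TPM + 1) scale (adjusted p = 0.159, limma). IDI1, CYP51A1, HSD17B7 and SCD also have pseudogenes in RefSeq that bear their symbols, and the handling of shared reads was not given in the sources used here.

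**Figure D4:**
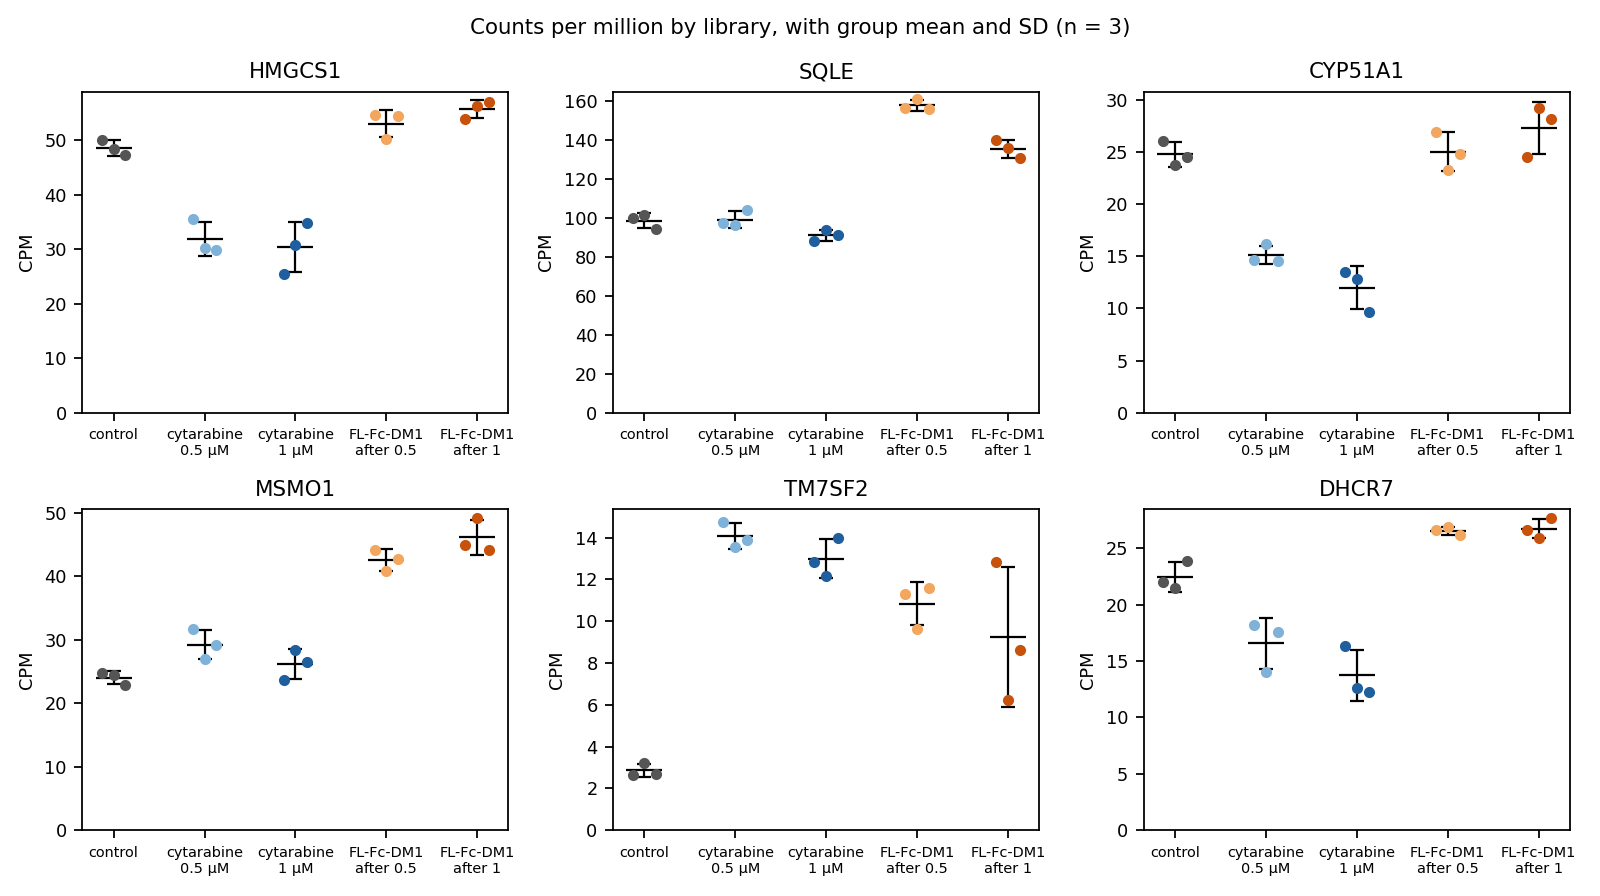
CPM by library (points) with mean and SD of 3 libraries for HMGCS1, SQLE, CYP51A1, MSMO1, TM7SF2 and DHCR7, on linear axes from 0 that differ between panels. HMGCS1, CYP51A1 and DHCR7 are lowest with cytarabine. After FL-Fc-DM1, CYP51A1 overlaps with control, and all libraries of HMGCS1 and DHCR7 lie slightly above it. SQLE and MSMO1 are highest after FL-Fc-DM1, and TM7SF2 goes from 2.86 CPM in control to 14.1 CPM at 0.5 µM cytarabine.

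**Figure D5:**
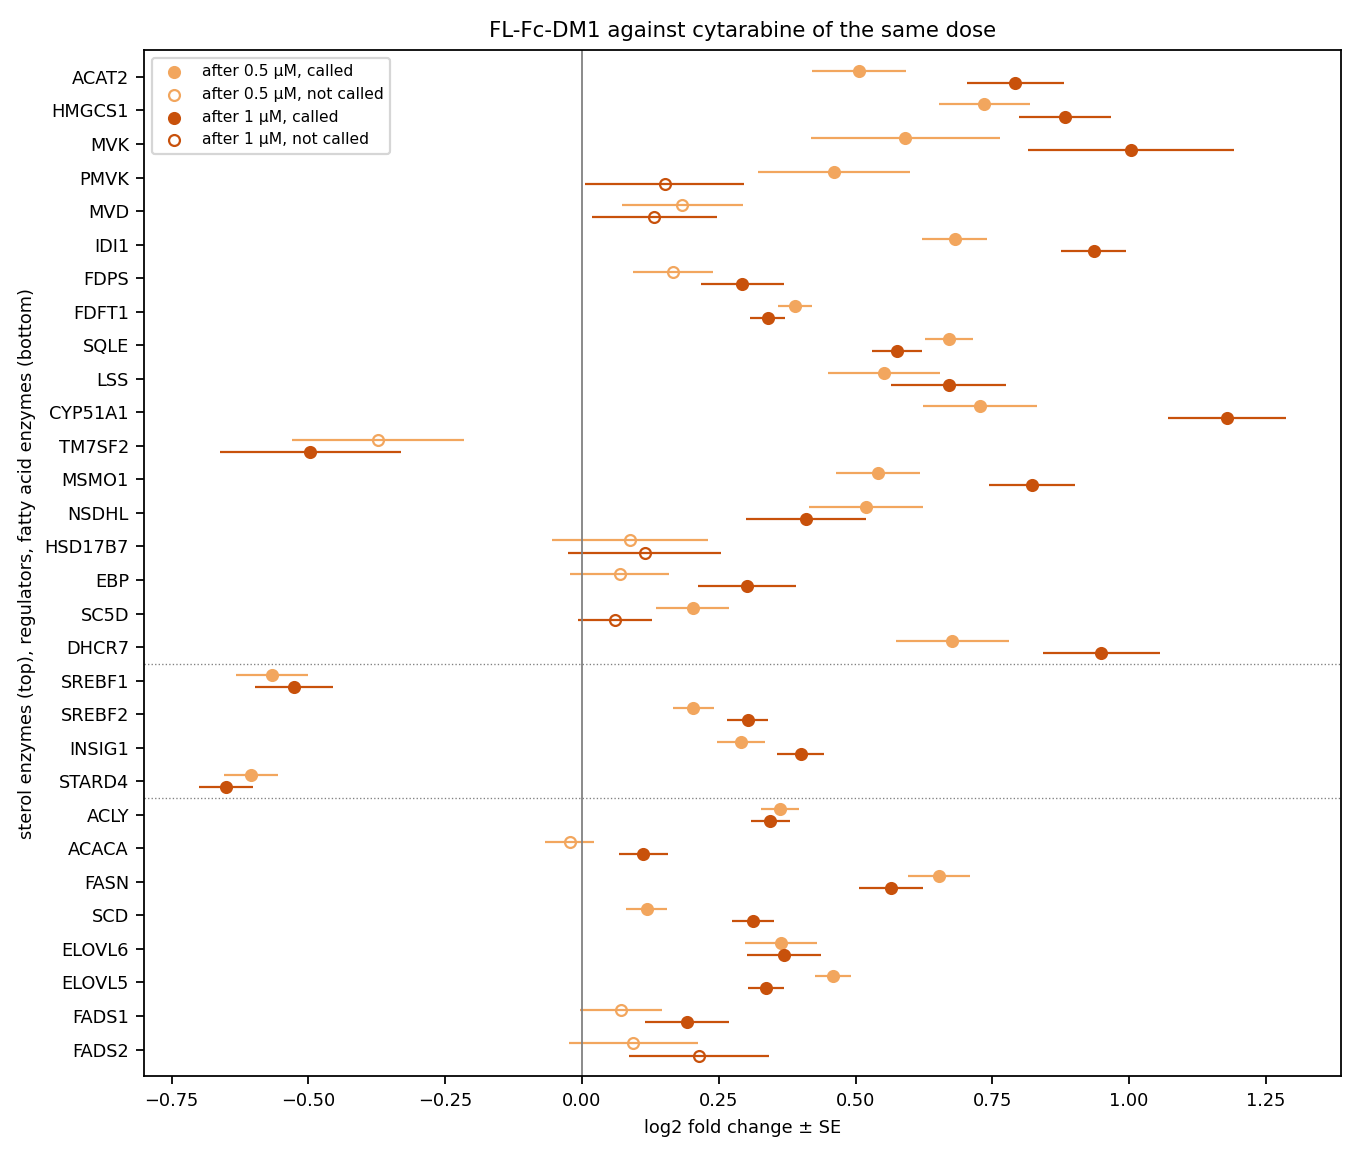
Log2 fold change ± SE of the 30 members for FL-Fc-DM1 against cytarabine of the same dose, after 0.5 µM (light) and 1 µM (dark), in the order sterol enzymes, regulators, fatty acid enzymes; filled points were called at an adjusted p under 0.05. Most sterol enzymes lie right of 0, up to 1.18 for CYP51A1 after 1 µM, and SREBF1, STARD4 and TM7SF2 lie left of it.

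Set against control, the FL-Fc-DM1 groups showed the branches on opposite sides. In FL-Fc-DM1 after 0.5 µM 13 of 30 members were higher and 9 lower than in control, where 35.0% of all genes were higher and 34.2% lower. After 1 µM 14 were higher and 10 lower, against 35.8% and 35.4% of all genes. Of the 18 sterol enzymes 10 and 11 were higher and 0 and 1 (FDFT1) lower, with median log2 changes of 0.32 and 0.30. Of the 8 fatty acid enzymes 1 (ELOVL5) was higher and 7 lower after each dose, with medians of -0.80 and -0.93, beside 0.02 and 0.00871 for all genes tested. The 9 sterol enzymes above control after both doses were MVD, IDI1, FDPS, SQLE, TM7SF2, MSMO1, NSDHL, SC5D and DHCR7. No test of the branches against each other was made, and no member was called in opposite directions at 0.5 and 1 µM in any of these comparisons. The share of all genes called alike or in opposite directions at both doses was not counted. Comparisons with control share the same control libraries, so their calls are not independent.

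Fewer members were called between the doses than against control. Against 0.5 µM, cytarabine at 1 µM had 2 members higher and 8 lower, where 9.08% of all genes were higher and 10.3% lower. STARD4 (0.29 ± 0.047) and INSIG1 (0.15 ± 0.043) were higher, and SREBF1 (-0.28 ± 0.064), SREBF2 (-0.17 ± 0.038), SCD (-0.32 ± 0.038), FASN (-0.19 ± 0.059), FADS2 (-0.41 ± 0.12), MVK (-0.60 ± 0.19), FDFT1 (-0.10 ± 0.031) and CYP51A1 (-0.33 ± 0.11) lower. Of these, the calls of SCD, SREBF1, SREBF2 and STARD4 held with each library left out in turn. The calls of SCD, SREBF2 and STARD4 also held on the log2(TPM + 1) scale and the others were lost, that of SREBF1 at -0.25 (adjusted p = 0.114, limma). Without cytarabine 0.5 µM replicate 1, 3 members were lower. MVK was not called without cytarabine 0.5 µM replicate 1 (-0.63), 2 (-0.61) or 3 (-0.54), or cytarabine 1 µM replicate 1 (-0.50) or 3 (-0.53). The FDFT1 call was lost without cytarabine 0.5 µM replicate 1 (-0.10), 2 (-0.10) or 3 (-0.10), or cytarabine 1 µM replicate 2 (-0.09). For CYP51A1 the call was lost without cytarabine 0.5 µM replicate 1 (-0.35), 2 (-0.28) or 3 (-0.35), or cytarabine 1 µM replicate 3 (-0.20). FASN lost its call without cytarabine 0.5 µM replicate 1 (-0.16), or cytarabine 1 µM replicate 2 (-0.16), FADS2 without cytarabine 0.5 µM replicate 1 (-0.35), or cytarabine 1 µM replicate 1 (-0.38), and INSIG1 without cytarabine 0.5 µM replicate 2 (0.14), or cytarabine 1 µM replicate 3 (0.13).

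FL-Fc-DM1 after 1 µM against FL-Fc-DM1 after 0.5 µM had 3 members higher and 8 lower, where 14.3% of all genes were higher and 14.0% lower. INSIG1 (0.26 ± 0.043), STARD4 (0.24 ± 0.052) and EBP (0.29 ± 0.090) were higher, and FDFT1 (-0.15 ± 0.031), SQLE (-0.22 ± 0.043), NSDHL (-0.28 ± 0.10), SREBF1 (-0.24 ± 0.074), ACLY (-0.10 ± 0.034), FASN (-0.28 ± 0.056), SCD (-0.13 ± 0.038) and ELOVL5 (-0.10 ± 0.033) lower. NSDHL was not called without FL-Fc-DM1 after 0.5 µM replicate 1 (-0.26) or 3 (-0.29), or FL-Fc-DM1 after 1 µM replicate 1 (-0.31), 2 (-0.30) or 3 (-0.24). Without FL-Fc-DM1 after 1 µM replicate 2, 5 members were lower. EBP lost its call without FL-Fc-DM1 after 0.5 µM replicate 1 (0.28) or 2 (0.22), or FL-Fc-DM1 after 1 µM replicate 2 (0.25) or 3 (0.25), ELOVL5 without FL-Fc-DM1 after 0.5 µM replicate 1 (-0.09) or 3 (-0.10), SREBF1 without FL-Fc-DM1 after 0.5 µM replicate 2 (-0.22), or FL-Fc-DM1 after 1 µM replicate 2 (-0.19), and ACLY without FL-Fc-DM1 after 0.5 µM replicate 2 (-0.10), or FL-Fc-DM1 after 1 µM replicate 2 (-0.10). The calls of FDFT1, NSDHL, SREBF1, ACLY, SCD and ELOVL5 were lost on the log2(TPM + 1) scale, and SREBF1 changed by -0.09 (adjusted p = 0.552, limma). The change from cytarabine to FL-Fc-DM1 differed between the doses for 1 member, SCD, by 0.19 ± 0.054 (adjusted p = 0.0468), where 2.14% of all genes had a higher log2 change after 1 µM and 0.931% a lower one. The SCD call was lost without cytarabine 0.5 µM replicate 1 (0.20), 2 (0.16) or 3 (0.21), cytarabine 1 µM replicate 1 (0.17) or 3 (0.19), FL-Fc-DM1 after 0.5 µM replicate 1 (0.19), 2 (0.16) or 3 (0.19), or FL-Fc-DM1 after 1 µM replicate 1 (0.18). For the other 29 members the widest 95% interval of this difference, that of MVK, ran from -0.16 to 0.98, and that of FDFT1 from -0.15 to 0.05.

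Compared per length, FDFT1 was the most abundant member in every group, with 353 ± 5.01 TPM in control (SD, n = 3) and 256 ± 4.49 TPM at 1 µM cytarabine. SCD was second in control with 269.8 ± 8.35 TPM and eighth at 0.5 µM cytarabine with 58.1 ± 1.51 TPM. STARD4 went from the thirteenth to the fourth place, at 43.3 ± 3.22 and 87.3 ± 1.03 TPM, and SREBF1 from twelfth in control (47.1 ± 1.69 TPM) to twenty-eighth after FL-Fc-DM1 (12.3 ± 0.913 and 11.5 ± 0.647 TPM). MVK was last or next to last throughout, with 4.78 ± 0.484 TPM in control, where TM7SF2 had 3.92 ± 0.625 TPM. ELOVL5 followed SCD in control with 189 ± 5.89 TPM and was second in the other groups. The median coefficient of variation of members within a group was 3.66% in control, 4.30% and 6.25% in the cytarabine groups at 0.5 and 1 µM, and 4.77% and 5.73% in the FL-Fc-DM1 groups.

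Other genes of these pathways were counted from further lists. These counts stand beside 38.0% of all genes higher and 35.2% lower at 0.5 µM cytarabine, 39.3% and 36.6% at 1 µM, and, for FL-Fc-DM1 against cytarabine, 22.0% and 22.8% after 0.5 µM and 23.5% and 22.2% after 1 µM. Of 15 testable sterol genes outside the 30, 4 were higher and 8 lower at 0.5 µM cytarabine, 6 and 8 at 1 µM, and 8 were higher after FL-Fc-DM1 than with cytarabine at each dose, with 2 and 1 lower. LBR, which shares the sterol reductase activity of TM7SF2, fell from 339 ± 9.81 CPM in control to 150.0 ± 7.21 and 144 ± 8.26 CPM with cytarabine, and TM7SF2 rose in the same libraries. NPC2, a lysosomal cholesterol carrier, rose by 1.28 ± 0.056 and 1.25 ± 0.056 on the log2 scale.

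The same shares of all genes, 38.0% higher and 35.2% lower at 0.5 µM cytarabine and 39.3% and 36.6% at 1 µM, apply to the other lists. For FL-Fc-DM1 against cytarabine they are 22.0% and 22.8% after 0.5 µM and 23.5% and 22.2% after 1 µM. Of 21 testable fatty acid genes outside the 30, 6 were higher and 10 lower at 0.5 µM cytarabine, 10 and 10 at 1 µM, and 6 were higher after FL-Fc-DM1 at each dose, with 1 and 2 lower. ACSL3, an acyl-CoA synthetase, fell by 1.31 and 1.40 on the log2 scale with cytarabine, and ACSL5, another, was 0.45 ± 0.048 and 0.28 ± 0.050 higher in FL-Fc-DM1 than in cytarabine. Of 10 genes of the isoprenoid side branch, which uses farnesyl diphosphate, 2 were higher and 7 lower at each cytarabine dose, and 4 higher and 1 lower after FL-Fc-DM1. NUS1, needed for dolichol, changed by -0.73 ± 0.039 and -0.83 ± 0.039 with cytarabine. A further list held liver X receptor genes and their targets, of which 9 were testable. At each cytarabine dose 8 were higher and 0 lower, with median log2 changes of 2.05 and 2.01. SREBF1 and SCD, also known targets of these receptors, were not on that list and were lower. Any part of the receptors in these changes was not tested. APOC1, an apolipoprotein, had 18.0 ± 2.31 CPM in control and 167 ± 17.8 and 204 ± 13.7 with cytarabine. ABCA1, a cholesterol exporter, had 14.9 ± 1.47 CPM in control, 61.5 ± 2.59 and 72.4 ± 5.29 with cytarabine, and 17.4 ± 1.29 and 18.6 ± 3.37 after FL-Fc-DM1. FL-Fc-DM1 against cytarabine had 1 of the 9 higher after each dose, and 6 and 3 lower. Against control, 7 of the 9 were higher and 0 lower in FL-Fc-DM1 after each dose. Of all genes tested, 35.0% and 35.8% were higher and 34.2% and 35.4% lower in those comparisons.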

How the data were processed

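Gene-level values of 15 Molm-13 libraries, 3 per group, were used. The authors deposited an estimated count and a TPM per gene and library, in which 9.62% to 11.3% of estimated counts were not whole (tolerance 0.01). The deposited TPM are scaled for gene length and library size. Per the submitters' processing notes, the tools included edgeR, DESeq2, StringTie 1.3.1, HISAT2 and fastp 0.18.0. Genome build, annotation, strand setting and handling of shared reads were not given in the sources used here.

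Estimated counts were rounded and fitted with edgeR 4.0.16 (R 4.3.3) in 1 quasi-likelihood model of 5 group means with TMM scaling, without a replicate block. The filter (minimum count 10, minimum total 15) kept 12355 genes, and the fit had 10 residual degrees of freedom. P-values were two-sided and adjusted by the Benjamini-Hochberg method over all genes tested, and a call needed an adjusted p under 0.05. Scripts were tested on simulated data.

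The 30 members and the further gene lists were chosen with earlier results of these data known. All members are named. Cell type markers are named for their direction, their level or their lack of counts. Genes of the other lists are named only among the 2 called genes of smallest p per list and comparison. Some of these are not reported here. For HMGCS1 the upstream sequence of 1 of its starts is shown. Alternatives were DESeq2 size factors, DESeq2 1.42.0, no low-count filter, a replicate block, only the groups compared, limma 3.58.1 on log2(TPM + 1) and with voom, a 1.5-fold minimum, and each library left out in turn.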

Additional observations from a re-analysis of the deposited data

Results flagged for a closer look

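The change of SCD from cytarabine to FL-Fc-DM1 was 0.19 higher on the log2 scale after 1 µM than after 0.5 µM (edgeR's quasi-likelihood test, adjusted p = 0.0468), and this difference between doses is the reason to look again. The change itself was 0.12 ± 0.038 after 0.5 µM and 0.31 ± 0.039 after 1 µM, with all 3 FL-Fc-DM1 libraries above all 3 cytarabine libraries at each dose. The call was lost with DESeq2 size factors (adjusted p = 0.0526), with voom (0.0982), in a fit of only the groups compared (0.156), on the log2(TPM + 1) scale (0.146), and without any of 9 of the 12 libraries, where the difference ran from 0.16 to 0.21.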

How the results depend on the processing

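No called change of a member turned its direction under any alternative. Of 163 member changes called, 34 lost the call in at least 1 alternative other than the fold minimum, 25 of them when 1 library was left out, and 95 were under 1.5-fold. With a 1.5-fold minimum, cytarabine against control had 2856 genes higher and 1963 lower at 0.5 µM, with 2 and 11 members. At 1 µM it had 3040 higher and 2213 lower, with 2 members higher. Of the 19 members lower at 1 µM without that minimum, IDI1, FDFT1, SQLE, ACLY and ELOVL5 fell short of it and the rest did not. FL-Fc-DM1 against cytarabine had 350 and 789 genes (7 and 1 members) after 0.5 µM, and 529 and 790 genes (8 and 1 members) after 1 µM. FL-Fc-DM1 against control had 2383 and 1792 genes (5 and 5 members) after 0.5 µM, and 2592 and 1924 genes (5 and 6 members) after 1 µM. Between doses there were 233 and 121 genes (0 and 1 members) for cytarabine, 425 and 167 genes (0 and 0 members) for FL-Fc-DM1, and 84 and 13 genes (0 members) for the difference of the changes.

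On the log2(TPM + 1) scale the fatty acid median was -0.98 and -1.14 for cytarabine against control, 0.10 for FL-Fc-DM1 after 0.5 µM against cytarabine, -0.86 for FL-Fc-DM1 after 1 µM against control, -0.049 between the FL-Fc-DM1 groups and 0.20 for the difference of the changes. The sterol median was 0.43 and 0.37 for FL-Fc-DM1 against cytarabine and 0.022 for the difference. There 716 genes were higher and 638 lower between cytarabine doses (1 and 2 members), 843 genes and 2 members lower between FL-Fc-DM1 groups, and 110 genes higher and 32 lower (0 members) for the difference. The cause was not tested. Members lower between FL-Fc-DM1 groups numbered 4 in a fit of only the groups compared and 5 with voom. For the difference, 154 genes were higher with only the groups compared, 203 lower with no low-count filter and 193 lower with DESeq2, and no member (0) was called with DESeq2 size factors, voom or only the groups compared.

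With each library left out, the fatty acid median ran from -1.23 to -1.16 for cytarabine 0.5 µM against control and from -0.98 to -0.90 for FL-Fc-DM1 after 1 µM against control. Between cytarabine doses 1 to 2 members were higher and 3 to 8 lower, and between FL-Fc-DM1 groups 5 to 9 were lower. For the difference, 151 to 308 genes were higher and 82 to 186 lower, 0 to 1 members were higher, and the medians ran from 0.053 to 0.18 (sterol) and -0.012 to 0.083 (fatty acid). The number higher was 151, 159 and 175 without FL-Fc-DM1 after 0.5 µM replicates 1 and 2 and cytarabine 0.5 µM replicate 3, and 186 were lower without FL-Fc-DM1 after 1 µM replicate 3.

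A replicate block left 7 members higher and 17 lower at 0.5 µM cytarabine, 5 and 19 at 1 µM, and ended no member's call. Residuals of libraries sharing a number correlated at -0.0624 to 0.0801 over 30 pairs, and 4 of 15 libraries were most like their own number, so the numbers were not taken as pairs. Counts of MVK, TM7SF2, MVD and HSD17B7 were the lowest among the members in control, which limits their precision.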
